A study of Mus musculus with 13 samples.

Results

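N6-methyladenosine (m6A) is a methyl mark on mRNA that writer enzymes add, reader proteins bind and eraser enzymes remove. METTL3 and METTL14 form the core methyltransferase, and METTL16 is a separate writer that acts on structured RNA and on the mRNA of the S-adenosylmethionine synthetase gene Mat2a. YTHDF2 directs methylated mRNA to decay, YTHDF3 works with it in the cytoplasm, YTHDC1 is the nuclear reader, and IGF2BP2 and IGF2BP3 bind and stabilise target mRNAs. ALKBH5 and FTO are demethylases. Fully grown oocytes are nearly silent in transcription, so the proteins of a maturing oocyte are made from stored mRNA.

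The footprints of these 10 genes, 3 writers, 5 readers and 2 erasers, were followed through oocyte maturation. They were chosen by name, with no measured value in the rule, and all 10 were found among the 22442 genes of the Ribo-seq counts and the 21898 genes of the acRIP-seq counts. A second list of 20 other m6A genes was read beside them.

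Ribo-seq counts ribosome-protected fragments (RPFs), the short RNA pieces that a ribosome covers and RNase I leaves whole. A count on a coding sequence (CDS) therefore combines how much mRNA there is and how many ribosomes it carries, and in pooled oocytes fewer expressing cells and less RNA per cell cannot be told apart. There were 3 WT GV, 3 Nat10-ZcKO GV, 2 WT MII and 3 Nat10-ZcKO MII libraries, where GV oocytes still hold the germinal vesicle and MII oocytes are arrested at the second meiotic metaphase. Nat10-ZcKO females were Nat10 lox/-; Zp3-Cre: Nat10 encodes the RNA cytidine acetyltransferase, and the Zp3 promoter drives Cre in oocytes from the primary follicle on. The labels give no genotype for WT females beyond that name, and all mice were of C57BL/6J background. The series text also mentions tamoxifen, which the methods do not give for these mice. In acRIP-seq, fragmented mRNA from WT GV oocytes was pulled down with an antibody to N4-acetylcytidine (ac4C), the mark that NAT10 adds, or with IgG, 1 library each. Each library was a pool of oocytes, and the labels give neither ages nor whether replicates came from separate animals, so p-values measure the spread between these libraries only. The paper's general methods give a single age for the females. There, GV oocytes followed the hormone PMSG, and superovulated oocytes followed PMSG and hCG. Hormone treatment may therefore differ between the stages, and the Ribo-seq methods do not state it.

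Totals ran from 4815 to 279464 RPFs per library, and 3 libraries stood apart. WT MII replicate 2 held 4815 RPFs on 523 genes, and its correlation with each of the other 10 libraries was 0.0450 to 0.0943. The 12 oocyte markers took 5.33% to 7.29% of the RPFs in the WT GV libraries and 10.7% in Nat10-ZcKO GV replicate 3. They took 0.0142% in Nat10-ZcKO GV replicate 1, where 9 of the 12 were at 0, Zp2, Gdf9 and Bmp15 among them, and 1.43% in replicate 2. The share in replicate 2 was low for GV but like the 1.14% to 1.44% of the MII libraries other than WT MII replicate 2. In Nat10-ZcKO GV replicates 1 and 2 the 8 adipocyte markers took 1.21% and 0.261%, against at most 0.0270% in every other library. Comparisons below are given with all libraries and without those of the 3 that they hold. Nat10 itself had 8, 11 and 3 RPFs in WT GV and 4, 1 and 5 in Nat10-ZcKO GV, so its level did not separate the genotypes. Those counts cover the whole CDS and not the deleted exons alone.

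In WT GV oocytes, Igf2bp2 was the most heavily footprinted of the 10 genes. Levels are in TPM, RPFs scaled to CDS length and library size, so that genes can be compared. Igf2bp2 had 18, 40 and 19 RPFs in the 3 WT GV libraries, or 89.1, 104 and 145 TPM. Its mean of 113 ± 29.0 TPM (SD, n = 3) exceeded that of 90.0% of the 11398 genes detected in WT GV, and its lowest library was above the highest library of every other member. The eraser Alkbh5 followed at 49.2 ± 16.1 TPM (SD, n = 3), with 9, 9 and 4 RPFs. The decay reader Ythdf2 stood at 43.8 ± 7.67 TPM, the nuclear reader Ythdc1 at 40.0 ± 11.5 TPM and Ythdf3 at 30.8 ± 14.5 TPM (SD, n = 3 each). The ranges of these 4 genes overlapped, so their order is not resolved.

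The writers followed at lower means. Mettl14 had 2, 15 and 3 RPFs and a mean of 29.5 ± 18.0 TPM (SD, n = 3), and its partner Mettl3 had 7, 5 and 3 RPFs and a mean of 23.8 TPM, from 13.1 to 35.0. Igf2bp3 stood at 21.7 ± 12.4 TPM and the eraser Fto at 20.4 ± 4.70 TPM (SD, n = 3 each). Mettl16 was lowest, with 3, 8 and 0 RPFs and 11.5 ± 10.3 TPM. From Ythdf3 down, each gene's range overlapped that of its neighbour. The counts are small: of the 110 values that 10 genes give in 11 libraries, 40 were 3 RPFs or fewer.

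**Figure D1:**
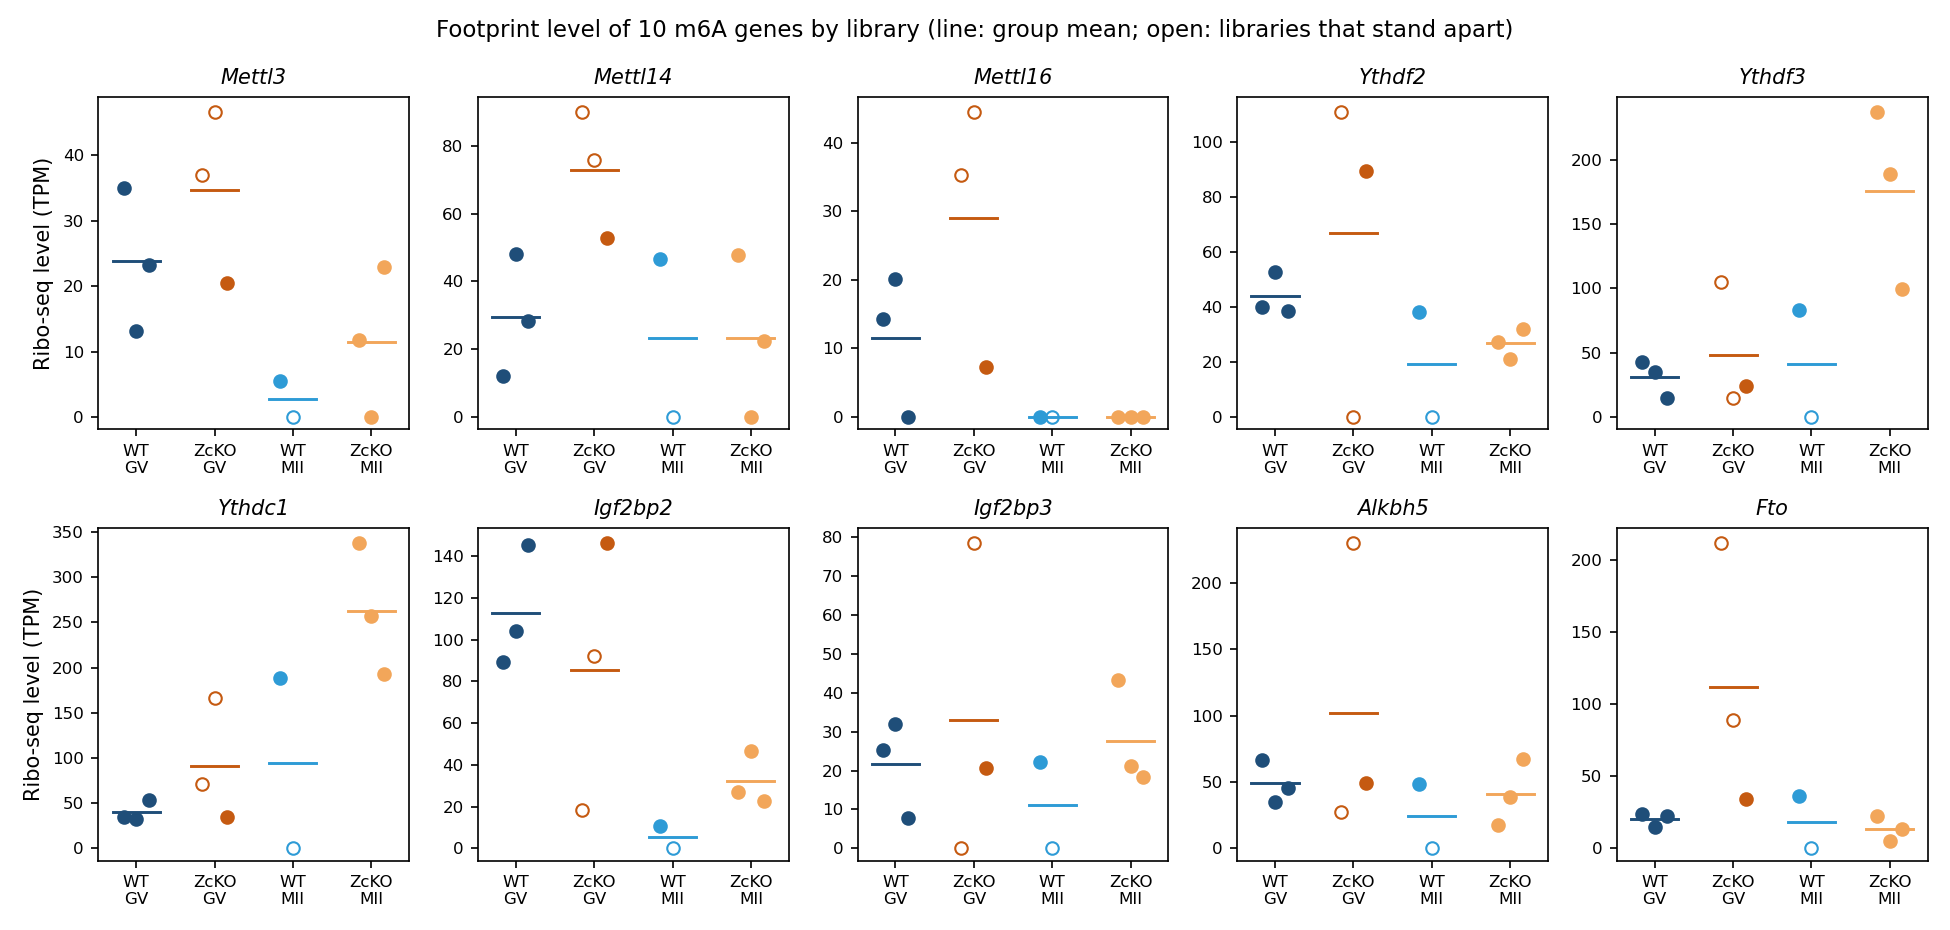
Ribo-seq level in TPM (vertical axis) of each of the 10 m6A genes in the 11 libraries, by group; each point is a library, lines are group means, and open points are the 3 libraries that stood apart. Filled MII points lie above the filled GV points for Ythdc1 and Ythdf3 and below them for Igf2bp2 and Ythdf2.

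Summed over the 10 genes, the share of all RPFs was nearly constant in WT GV, at 0.0510% to 0.0519%. It was 0.0921% and 0.101% in Nat10-ZcKO GV replicates 1 and 2, which stood apart, and 0.0664% in replicate 3, 0.0705% in WT MII replicate 1 and 0.0726% to 0.119% in Nat10-ZcKO MII. In WT MII replicate 2 all 10 genes were at 0, and 3 RPFs there correspond to 623 CPM (RPFs scaled to the library total), so absence could not be told from shallow sampling.

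Some of these counts can hold RPFs of other loci. Of the 28-base stretches in the Ythdf2 CDS, 37.5% occur again elsewhere in the genome, so that reads of Ythdf2 could have been split or dropped in counting. For Ythdc1 this was 0.275%, and for the other 8 genes 0. The longest run shared between 2 members' coding sequences was 17 bases, and with other family members 22 (Ythdf2 and Ythdf1) and 20 (Igf2bp2 or Igf2bp3 and Igf2bp1). Footprints no longer than these runs could not be assigned to 1 gene there. The Mettl3 CDS overlaps exons of Tox4 on the opposite strand over 222 bases, Fto overlaps 2 genes on the opposite strand, and Ythdc1 shares 631 bases with a noncoding gene on its own strand. Whether counting used the strand is not given in the sources used here.

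The anti-ac4C pull-down divided the 10 genes. The ratio of CPM in the anti-ac4C to the anti-IgG library was above the study's cutoff of 2 for 3 of them, Igf2bp2, Mettl16 and Alkbh5, against 43.9% of the 8752 genes with at least 10 counts over both libraries. With 1 library for each antibody there is no replicate check, and the intervals are exact (Clopper-Pearson) at 95% and cover counting error only.

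Igf2bp2 had 660 ac4C and 25 IgG counts, a ratio of 3.16 (2.12 to 4.92), and was the sole member with a lower bound above 2. Of the 8752 genes, 439 had such a bound. Alkbh5 had 664 and 37 counts and a ratio of 2.15 (1.54 to 3.08). These 2 intervals lay wholly above 1, as did 21.7% of all genes counted. Mettl16 rested on 23 ac4C counts and 1 IgG count, and its ratio of 2.75 (0.447 to 113) could lie on either side of 1.

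On the other side lay 5 readers and writers, with intervals wholly below 1, against 17.8% of all genes. Mettl3 was lowest, with 63 ac4C and 26 IgG counts and a ratio of 0.290 (0.181 to 0.477). Its partner Mettl14 had 0.381 (0.189 to 0.831), Ythdf2 0.436 (0.277 to 0.708), Igf2bp3 0.479 (0.338 to 0.692) and Ythdc1 0.504 (0.377 to 0.683). Both subunits of the core methyltransferase were thus among the 5, and the 2 IGF2BP genes fell on opposite sides. Ythdf3, with 238 and 24 counts, had a ratio of 1.19 (0.779 to 1.89), and Fto, with 18 and 3 counts, had 0.718 (0.210 to 3.81).

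The median ratio was 0.611 over the 10 members, 1.24 over the 17 other m6A genes with at least 10 counts and 1.56 over all genes counted. At least 50 counts were reached by 7 of the 10 members. Over 4306 genes with at least 50 counts and an IgG count above 0, the median was 1.01 to 1.21 by class of GC content. The anti-ac4C library was 8.35 times deeper than the anti-IgG library. Without scaling to depth all 10 members exceed 2, as do 8179 of 8752 genes. Reads on no gene were 46.7% of the IgG library and 17.1% of the ac4C library.

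**Figure D2:**
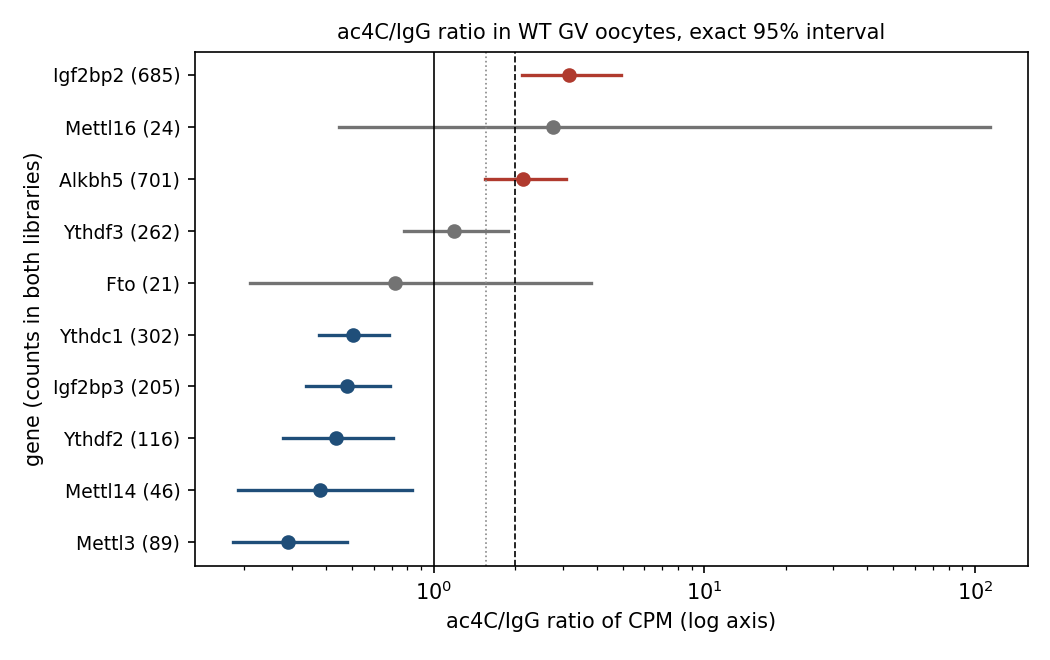
ac4C/IgG ratio of CPM (horizontal log axis) for the 10 genes in WT GV oocytes, with exact 95% intervals and the counts of both libraries beside each name; the solid line marks 1, the dashed line 2 and the dotted line the median of all genes. Igf2bp2 and Alkbh5 (red) lie wholly above 1, and 5 genes from Mettl3 to Ythdc1 (blue) wholly below it.

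In ribosomal RNA, NAT10 acetylates the middle base of the triplet CCG, so the densest CCG stretch of a coding sequence was read for 4 members with clear ratios. The 30-base windows are from GRCm38, given 5′ to 3′ on the coding strand, with CCG in capitals. They show the 2 genes above 1 and, for contrast, the nuclear reader and the catalytic writer below 1.
Igf2bp2, chr16:22162905-22162934, minus strand, coding exon 1: gagccCCGCCGtcaCCGCCGacgacctCCG
Alkbh5, chr11:60538505-60538534, plus strand, exon 1: gggaggCCGCCGCCGctgcggCCGCCGCCG
Ythdc1, chr5:86817247-86817276, plus strand, exon 4: cCCGaagtgaggccagtgattctggttCCG
Mettl3, chr14:52300348-52300377, minus strand, exon 2: tgtccccaaccttCCGtagtgatagtcCCG
The Alkbh5 window holds 6 CCG, and 1.20% of 22346 genes have a window at least as rich. The Igf2bp2 window holds 5, which 3.45% of genes reach, and the Ythdc1 and Mettl3 windows hold 2 each, which 67.6% reach.

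Over the whole transcript read for each gene, Alkbh5 had 63 CCG and Igf2bp2 60, and the other 8 members had 11 to 40. Alkbh5 also had the longest of these transcripts, at 5730 bases. Per kilobase, Igf2bp2 had 15.39 CCG and Alkbh5 10.99, and the other 8 members had from 2.23 (Ythdf3) to 9.69 (Ythdf2). Ythdf2 and Mettl3, at 9.69 and 8.89 per kilobase, were near Alkbh5 and had ratio intervals wholly below 1. Spearman correlations of the ratio were taken over 4306 genes with at least 50 counts and an IgG count above 0. Across these genes of the same 2 libraries, they were -0.06 with CCG per kilobase, -0.09 with GC content and 0.185 with transcript length. The densest window and the CCG count of a transcript were not set against the ratio over all genes. Gene-level counts do not place a pulled-down fragment within its mRNA, so the windows describe the sequence and locate no acetylated base.

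From GV to MII, Ythdc1 and Ythdf3 gained footprints and Igf2bp2 lost them in the 8 libraries that did not stand apart. These are 4 GV libraries, 3 WT and Nat10-ZcKO replicate 3, and 4 MII libraries, WT replicate 1 and 3 Nat10-ZcKO. Means and ranges pooled by stage therefore also differ in genotype. In GRCm38, Ythdc1 lies at chr5:86804221-86836659, Ythdf3 at chr3:16183212-16217037 and Igf2bp2 at chr16:22059009-22163299. A fit with genotype as a term (edgeR, quasi-likelihood test) was added for them after the data had been seen.

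Ythdc1, the nuclear reader, had 9, 16 and 9 RPFs in WT GV and 18 in Nat10-ZcKO GV replicate 3, or 32.2 to 53.2 TPM. In MII it had 45 RPFs in the WT library and 113, 64 and 55 in those of Nat10-ZcKO, or 188 to 338 TPM. Every MII library lay above every GV library, and the mean moved from 38.8 ± 9.73 to 244 ± 70.1 TPM (SD, n = 4 each). Ythdc1 rose by a log2 fold change of 2.36 (SE 0.33, edgeR adjusted p = 3.04e-06).

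Ythdf3, a cytoplasmic reader, had 9, 14 and 2 RPFs in WT GV and 10 in Nat10-ZcKO GV replicate 3, or 14.7 to 42.8 TPM. In MII it had 16 RPFs in the WT library and 64, 38 and 23 in those of Nat10-ZcKO, or 83.0 to 237 TPM. The groups again did not overlap, and Ythdf3 rose by 1.84 (log2, SE 0.48, edgeR adjusted p = 0.00195). This call rested on Nat10-ZcKO GV replicate 3: without it the log2 fold change was 1.24 and the adjusted p 0.112.

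Igf2bp2 moved the other way. It had 18, 40 and 19 RPFs in WT GV and 58 in Nat10-ZcKO GV replicate 3, or 89.1 to 146 TPM, and in MII 2 in the WT library and 7, 9 and 5 in those of Nat10-ZcKO, or 10.8 to 46.6 TPM. Its mean went from 121 ± 29.0 to 26.8 ± 14.9 TPM (SD, n = 4 each), and it fell by 2.80 on the log2 scale (SE 0.45, edgeR adjusted p = 1.49e-05). Ythdc1 and Igf2bp2 were called whichever of the 8 libraries was left out, with log2 fold changes of 2.20 to 2.59 and -3.36 to -2.48.

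These 3 were the members that passed the filter on low counts, all 3 were called, and the background was high: 33.9% of the 2185 genes tested were higher and 36.3% lower at MII. The filter keeps a gene with enough RPFs in as many libraries as 1 stage holds. Ythdc1 and Ythdf3 passed it through the MII libraries and Igf2bp2 through the GV libraries. That all 3 were called is therefore no separate support for a change with stage. With no filter all 10 members could be tested, and the same 3 were called, against 8.16% of 13058 genes higher and 9.23% lower. Among genes with at least 20 RPFs in the 8 libraries, 18.7% had every MII value above every GV value and 21.1% the reverse. Of the 9 members that reached 20 RPFs, Ythdc1 and Ythdf3 were of the first kind and Igf2bp2 and Ythdf2 of the second. The oocyte markers took 5.33% to 10.7% of RPFs in the 4 GV libraries and 1.14% to 1.44% in the 4 MII libraries, and their part in the stage differences was not tested. Granulosa and cumulus markers took 0.228% to 0.431% in the GV and 0.174% to 0.469% in the MII libraries, and these ranges overlapped. Single markers of that list did move with stage. Tnfaip6 was at 0 in all 4 GV libraries and Ptx3 in the WT GV libraries, and both had RPFs in all 4 MII libraries. Amhr2 went the other way, with RPFs in all 4 GV libraries and 0 in the Nat10-ZcKO MII libraries. The part of these markers was not tested. The 6 smooth muscle markers took 0.0686% to 0.0952% in the GV and 0.00593% to 0.0170% in the MII libraries, with no overlap, and their part was not tested either.

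**Figure D3:**
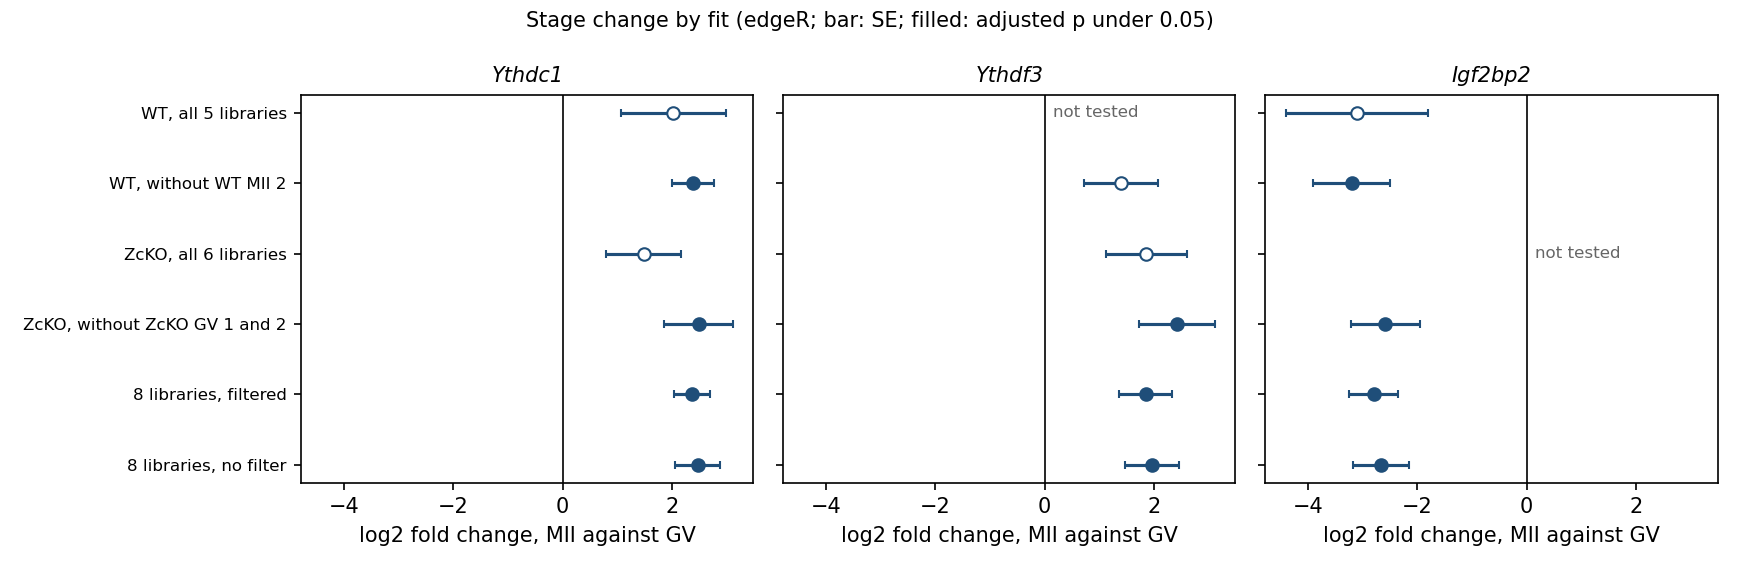
log2 fold change from GV to MII (horizontal axis) of Ythdc1, Ythdf3 and Igf2bp2 in 6 edgeR fits, with SE as bars; filled points have an adjusted p under 0.05. Direction is the same in every fit shown, and only fits without the libraries that stood apart give filled points.

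The other 7 members were not called at this depth. Ythdf2 had 5 to 35 RPFs in the 4 GV libraries and 4 to 7 in the 4 MII libraries, and its unfiltered log2 fold change was -1.24 (SE 0.54, edgeR adjusted p = 0.0999). The levels of Alkbh5, 49.2 ± 13.2 TPM at GV and 43.1 ± 20.9 TPM at MII, differed by less than their spread (SD, n = 4 each). The same held for Igf2bp3, at 21.4 ± 10.2 and 26.3 ± 11.5 TPM, and for Fto, at 23.9 ± 7.88 and 19.3 ± 13.6 TPM. Mettl14 had 35.4 ± 18.8 TPM at GV and 29.2 ± 22.7 TPM at MII, and Mettl3 had 22.9 ± 9.11 and 10.0 ± 9.81 TPM. Mettl16 had 14 RPFs of 798194 in the 4 GV libraries and 0 of 629232 in the 4 MII libraries. The GV counts were uneven, at 3, 8 and 0 in WT and 3 in Nat10-ZcKO replicate 3. Taking 3 RPFs over the MII libraries as the limit, the GV level is 3.68-fold higher. Counting error on the GV RPFs is left out of that value, so it is not a lower bound. The unfiltered fit did not call Mettl16 (edgeR adjusted p = 0.0756).

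The balance of Igf2bp2 and Ythdc1 can be read within each library, where no scaling between libraries enters. Of the RPFs on these 2 genes, Ythdc1 took 33.3% (16.5% to 54.0%), 28.6% (17.3% to 42.2%) and 32.1% (15.9% to 52.4%) in the WT GV libraries, with exact 95% intervals. In Nat10-ZcKO GV replicate 3 it took 23.7% (14.7% to 34.8%). It took 95.7% (85.5% to 99.5%) in the WT MII library and 94.2%, 87.7% and 91.7% in those of Nat10-ZcKO. These 2 genes were paired because their counts moved in opposite directions in the same libraries, so the shares restate that difference and are not a further test of it. Ythdc1 had the highest TPM of the 10 genes in each of these 4 MII libraries, and Igf2bp2 in each of these 4 GV libraries. The 2 GV libraries that stood apart differed, with 83.3% of 6 RPFs in Nat10-ZcKO GV replicate 1 and 70.0% of 20 RPFs in replicate 2.

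**Figure D4:**
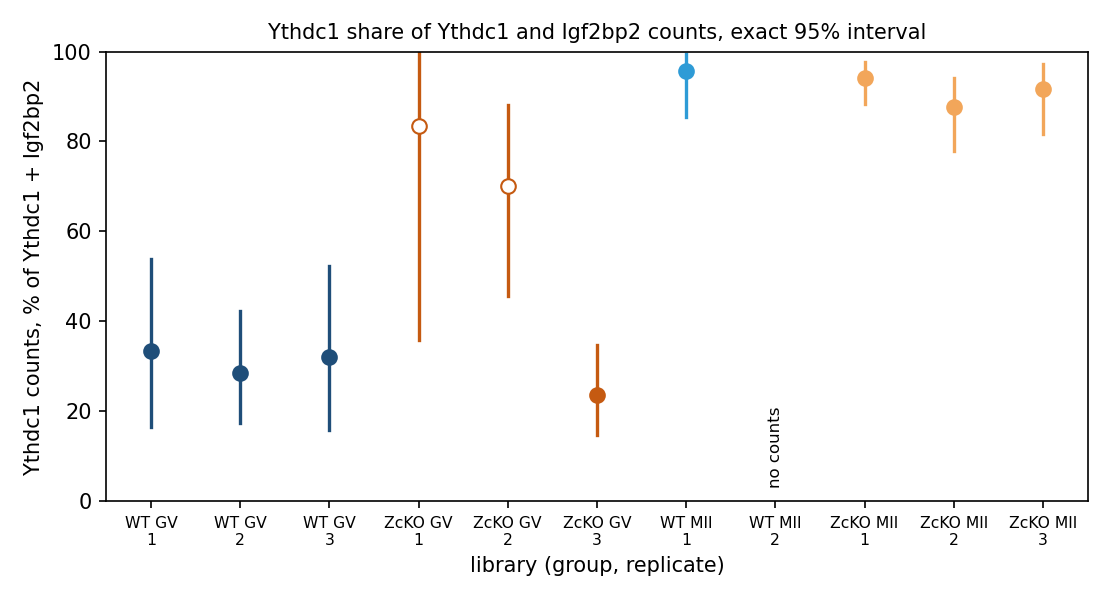
Ythdc1 RPFs as a percent of Ythdc1 plus Igf2bp2 RPFs (vertical axis) in each library, with exact 95% intervals; open points are libraries that stood apart, and WT MII replicate 2 had no RPF on either gene. The WT GV libraries lie at 28.6% to 33.3% and the MII libraries at 87.7% to 95.7%.

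With all libraries kept, edgeR with TMM scaling called no member in either stage comparison, and 2 of 10 passed the filter in each. In WT, where 0.293% of 2045 genes were called, Ythdc1 had a log2 fold change of 2.03 (SE 0.97, edgeR adjusted p = 0.203). Igf2bp2 had -3.11 (SE 1.30, edgeR adjusted p = 0.154). Scaled by library size only, both were called by edgeR, Ythdc1 at 2.25 (adjusted p = 0.000384) and Igf2bp2 at -3.23 (adjusted p = 0.00126). That fit called 343 of the 2045 genes higher and 654 lower. DESeq2 called 1 of these 2, Igf2bp2, with 47 of the 2045 genes higher and 844 lower. Leaving out WT GV replicate 1 brought both past the threshold (edgeR adjusted p = 0.0284 and 0.0338), with 41 of 1587 genes higher and 144 lower. Leaving out WT MII replicate 2 raised the share called to 20.9% higher and 23.9% lower, and then Ythdc1 rose by a log2 fold change of 2.38 (SE 0.39, adjusted p = 0.000131) and Igf2bp2 fell by 3.20 on the log2 scale (SE 0.70, adjusted p = 0.00174). Ythdf3 had 1.39 in that fit and was not called (adjusted p = 0.101). WT MII is then 1 library, assumed to vary like the GV libraries.

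In Nat10-ZcKO, where 16.5% of 2225 genes were called, Ythdf3 had a log2 fold change of 1.86 (SE 0.75, edgeR adjusted p = 0.0935). Ythdc1 had 1.49 (SE 0.69, edgeR adjusted p = 0.131). DESeq2 called both Ythdf3 and Ythdc1, with 484 of the 2225 genes higher and 305 lower. Without Nat10-ZcKO GV replicates 1 and 2, 19.0% of genes were higher and 19.6% lower, and 4 of 7 members tested were called. Ythdf3 rose by 2.42 and Ythdc1 by 2.49, and Igf2bp2 fell by 2.59 and Ythdf2 by 2.08 on the log2 scale. This fit holds 1 GV library, which is assumed to vary like the MII libraries. Without Nat10-ZcKO GV replicate 1 alone, edgeR called Ythdf3 (2.50, adjusted p = 0.0298) and Igf2bp2 (-2.37, adjusted p = 0.0272). In that fit 331 of 2693 genes were higher and 333 lower. Without replicate 3 alone Fto was called (-2.90, edgeR adjusted p = 0.0194), with 482 of 2921 genes higher and 298 lower.

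Whether maturation differed between genotypes was tested by the stage by genotype interaction over all 11 libraries, in which 0.802% of 3863 genes were called and none of the 6 members tested. For Igf2bp2 the difference was 2.32 (log2, SE 1.72, edgeR adjusted p = 0.789), for Ythdf3 1.80 (SE 1.54, adjusted p = 0.789) and for Ythdc1 0.64 (SE 1.73, adjusted p = 0.906). The largest in size was Fto, -2.51 (SE 1.57, adjusted p = 0.789), Mettl14 had -1.14 and Ythdf2 -0.27. None of the 6 had an unadjusted p under 0.05. Fto did with DESeq2 (-3.24, adjusted p = 0.468) and with library size only (-3.66, adjusted p = 0.310), where no member was called, and DESeq2 gave Mettl14 no adjusted p. The sign for Ythdc1 turned, to -0.35, with scaling by library size only. Without WT MII replicate 1, WT MII was represented by the library at 0 for all members. Ythdf3 and Ythdc1 then had 8.33 and 8.53, where the median over all genes tested was 5.44. Standard errors of this size leave room for large differences in either direction. Without the 3 libraries that stood apart the interaction was 0.80 for Igf2bp2 (SE 1.11, adjusted p = 0.888) and 0.30 for Ythdc1 (SE 0.70, adjusted p = 0.946).

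Between genotypes at the same stage, no member was called with all libraries kept. At GV, 2 of 10 members passed the filter and 0% of 1765 genes were called by edgeR, and before adjustment 70 higher and 23 lower genes had a p under 0.05. DESeq2 called 6 genes and gave no adjusted p for either member. Ythdc1 had a log2 fold change of 1.20 in Nat10-ZcKO against WT (SE 0.67, edgeR adjusted p = 0.908) and Igf2bp2 of -0.04 (SE 0.66, adjusted p = 0.985). Neither was under 0.05 before adjustment. Without Nat10-ZcKO GV replicates 1 and 2 these values were 0.14 for Ythdc1 (SE 0.58, adjusted p = 0.954) and 0.67 for Igf2bp2 (SE 0.38, adjusted p = 0.420), and without replicate 2 alone Ythdc1 had 0.28. With no filter all 10 were tested and none was called.

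Fto, the eraser, had 5, 6 and 3 RPFs in WT GV and 12, 6 and 14 in Nat10-ZcKO GV. These are 15.1 to 24.0 against 34.2 to 212 TPM, so the GV groups did not overlap. This was not particular to Fto. The writer Mettl14, at 12.2 to 48.1 against 52.9 to 90.0 TPM, did not overlap either. Nor did 2 of the other m6A genes, Ythdf1 at 0 to 15.4 against 25.4 to 55.1 TPM and Elavl1 at 13.9 to 28.3 against 36.6 to 232 TPM. Hnrnpc did not overlap in the other direction, at 173 to 225 against 58.1 to 172 TPM. The share of all genes without overlap at GV was not computed, so no result about these genes is drawn from it. The 2 highest Fto values, 212 and 89.3 TPM, were in Nat10-ZcKO replicates 1 and 2. These libraries had fewer oocyte-marker RPFs than the other GV libraries and raised adipocyte markers. Fto did not pass the filter with all libraries. It was called with these 2 as the sole Nat10-ZcKO libraries (log2 fold change 2.67, SE 0.60, edgeR adjusted p = 0.0199), where 11.5% of 1858 genes were higher and 8.99% lower. Without these 2 its log2 fold change was 1.03 (SE 0.96, adjusted p = 0.679).

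At MII, 0.191% of 2097 genes were called and neither of the 2 members tested. DESeq2 did not call Ythdc1 (adjusted p = 0.755) and gave Ythdf3 no adjusted p. Ythdf3 had a log2 fold change of 1.16 (SE 1.02, edgeR adjusted p = 0.997) and Ythdc1 of 0.86 (SE 1.25, adjusted p = 0.997). Without WT MII replicate 2 the values were 0.94 for Ythdf3 (SE 0.60) and 0.36 for Ythdc1 (SE 0.51), and neither was called (adjusted p = 0.9998 each). Without WT MII replicate 1, the library with no member RPF stood alone for WT. Ythdf3 and Ythdc1 then had 8.02 and 8.92, where the median over all genes tested was 6.52. Their levels in WT MII replicate 1, 83.0 and 188 TPM, were below all 3 Nat10-ZcKO MII libraries, at 99.8 to 237 and 192 to 338 TPM. This was not particular to them: Igf2bp2 was also below all 3, and Ythdf2 and Fto were above all 3. The share of all genes so placed was not computed. With the other WT MII library at 0 for every member, the WT side rests on 1 library.

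Of the other 20 m6A genes, 7 passed the filter in the fit over 8 libraries and 6 were called, 4 higher and 2 lower at MII, against the 33.9% and 36.3% of all genes given above. Among those called, Rbm15 passed the filter through the MII libraries alone and Prrc2a through the GV libraries alone. Rbm15, a subunit that guides the methyltransferase to its targets, rose from 18.4 ± 5.54 TPM at GV to 83.0 ± 5.58 TPM at MII (SD, n = 4 each, log2 fold change 1.89, edgeR adjusted p = 0.000454). Virma, a scaffold of the complex, rose by 0.93 (log2, adjusted p = 0.0117). Hnrnpa2b1 and Hnrnpc, nuclear RNA-binding proteins named as indirect readers, rose by 0.59 and 0.84 (adjusted p = 0.0354 and 0.0341).

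Lower at MII were Fxr1 and Prrc2a. Fxr1, a relative of the fragile X protein, had 71, 160 and 72 RPFs in WT GV and 143 in Nat10-ZcKO GV replicate 3, and in MII 15 in the WT library and 39, 16 and 17 in those of Nat10-ZcKO. It fell by 2.31 on the log2 scale (SE 0.30, edgeR adjusted p = 1.48e-06). Prrc2a, a reader of methylated mRNA, fell by 1.30 (adjusted p = 0.00570). Zc3h13, a further subunit of the writer complex, was tested and not called. With no filter, Hnrnpa2b1 and Hnrnpc were no longer called (adjusted p = 0.125 and 0.0678), and the other 4 were. Leaving out 1 of the 8 libraries kept the calls of Rbm15 and Fxr1 each time. Virma was not called without Nat10-ZcKO GV replicate 3 and Prrc2a not without WT MII replicate 1. Hnrnpa2b1 and Hnrnpc were not called without either of these or without WT GV replicate 2 or 3.

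**Figure D5:**
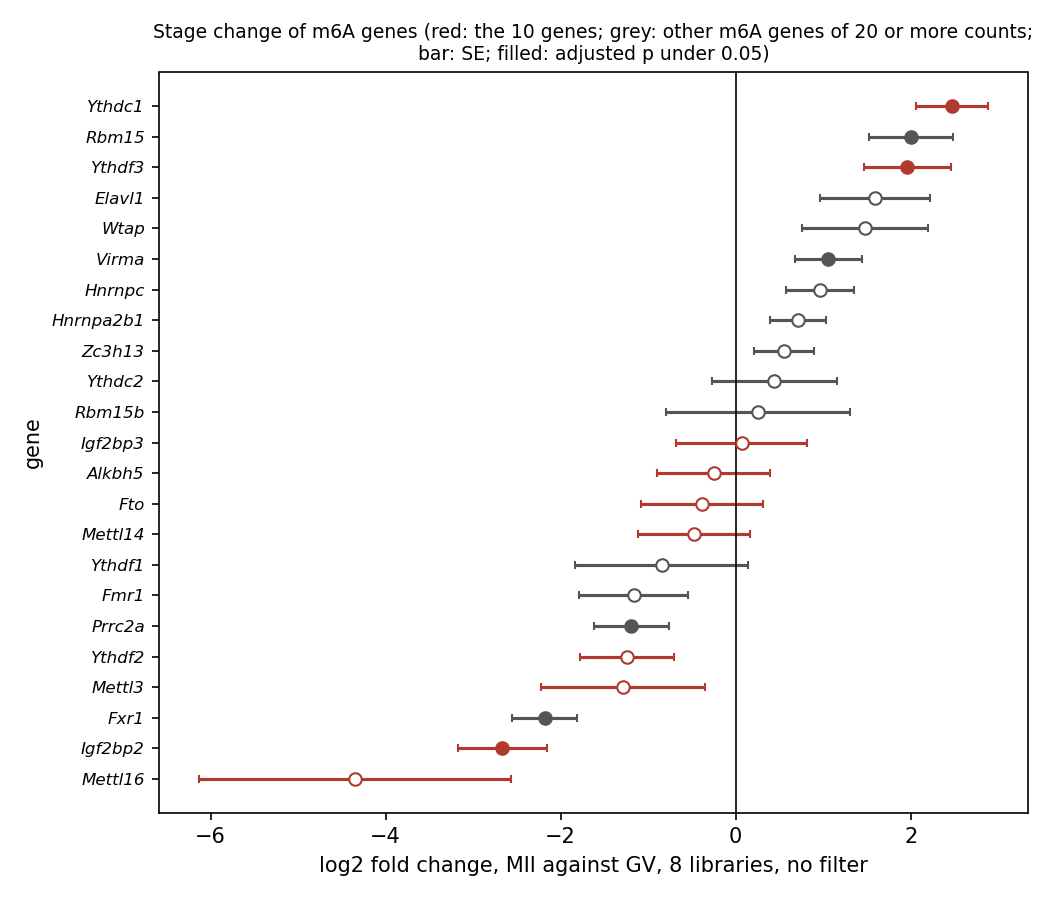
log2 fold change from GV to MII over the 8 libraries with no filter (horizontal axis, edgeR, bars are SE) for the 10 m6A genes (red) and the other m6A genes with at least 20 RPFs (grey); filled points have an adjusted p under 0.05. Ythdc1 and Ythdf3 lie with Rbm15 and Virma to the right, Igf2bp2 with Fxr1 and Prrc2a to the left; Mettl16 has no MII RPF, so its fitted value depends on the prior count.

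With all libraries kept, none of the other m6A genes was called by edgeR with TMM scaling in any of the 5 comparisons. In fits whose numbers over all genes are given above, edgeR with library size only called Fxr1 lower in WT (adjusted p = 0.00816). DESeq2 called Fxr1 lower in WT, and Rbm15 higher and Prrc2a lower in Nat10-ZcKO from GV to MII. The most footprinted of them in WT GV were Hnrnpa2b1 at 777 TPM, Fxr1 at 352 TPM, Hnrnpc at 205 TPM, Zc3h13 at 92.5 TPM and Prrc2a at 54.0 TPM, so that Igf2bp2 stood between Hnrnpc and Zc3h13. Of the Hnrnpc and Hnrnpa2b1 coding sequences, 62.5% and 26.5% of the 28-base stretches recur elsewhere in the genome, and their counts are uncertain for that reason.

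In the anti-ac4C pull-down, 4 of the 17 other m6A genes counted had an interval wholly above 1, against 21.7% of all genes counted. These were Ythdf1, the third YTHDF reader, at 3.32 (1.26 to 12.4), Hnrnpc at 3.47 (1.56 to 9.59), Hnrnpa2b1 at 2.28 (1.38 to 4.04), and Trmt112, which activates several methyltransferases, with 39 ac4C and 0 IgG counts. All 28-base stretches of the Trmt112 CDS recur elsewhere in the genome. Wholly below 1 were 2 of the 17, against 17.8% of all genes. These were Zc3h13 at 0.441 (0.351 to 0.559) and Mat2a, the METTL16 target, at 0.219 (0.0744 to 0.723). The YTHDF genes thus ran from 0.436 for Ythdf2 to 3.32 for Ythdf1, and their intervals at these 2 ends did not overlap. Nat10 mRNA itself had a ratio of 2.85 (1.19 to 8.93).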

How the data were processed

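The authors deposited raw RPF counts per gene CDS for 11 Ribo-seq libraries and raw counts per gene for 2 acRIP-seq libraries, each library separate. The submitters' processing notes name cutadapt, STAR, HTSeq and mm10, and versions, strand setting and handling of PCR duplicates are not given in the sources used here. No molecular identifiers are described, so intervals cover counting error only. Identifiers were matched to GENCODE M21 (GRCm38), 22399 of 22442. Summary rows that name no gene were left out of totals.

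TPM used the union of CDS segments. Comparisons used edgeR 4.0.16 (R 4.3.3) on counts: filterByExpr, TMM, glmQLFit and glmQLFTest, Benjamini-Hochberg adjustment over all genes tested, called at an adjusted p under 0.05, in the libraries of the groups compared. Standard errors are the log2 fold change over the square root of F. The steps were tested on simulated data. Alternatives were DESeq2 1.42.0, library size only, no filter, the replicate number as a block, all 11 libraries, leaving out libraries, and other rules for the ac4C/IgG ratio. The 8-library fit was added after seeing the data. Deviations of same-numbered libraries from their group means correlated at -0.0282 to 0.212. In no comparison did all pairs pass 0.1, so the numbers were not taken as pairs.

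The 10 genes, the lists and the tests were chosen with earlier results of these data known. Other m6A genes are named if called, among the 5 highest in WT GV, or with an ac4C/IgG interval wholly above or below 1. Elavl1 is named for its lack of overlap at GV alone. Sequence matches were made in Python 3.11.15 with numba 0.67.0 on the GRCm38 primary chromosomes. Proteins were not used here.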

Additional observations from a re-analysis of the deposited data

How the results depend on the processing

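The genes called at GV between genotypes, 0 with all libraries, were 6 with DESeq2, 41 with no filter, 23 with all 11 libraries in one fit, 78 without both Nat10-ZcKO GV libraries 1 and 2, and 0 to 380 leaving out one library, with 0 to 1 members. At MII, 4 became 15 with DESeq2, 44 with library size only, 0 with no filter, 19 with all 11 libraries and 0 to 1451 leaving out one, with 0 to 2 members. For MII against GV in WT, 6 (all higher) became 891 with DESeq2 (47 higher), 997 with library size only (343 higher), 0 with no filter, 60 with all 11 libraries, 1534 over 8 libraries and 37 to 1902 leaving out one. Members called there, 0 with all libraries, were 1 with DESeq2, 2 with library size only, 3 over 8 libraries and 0 to 2 leaving out one. In Nat10-ZcKO, 368 became 789 with DESeq2, 1445 without both GV libraries, 1534 over 8 libraries and 0 to 780 leaving out one, with 2, 4, 3 and 0 to 2 members. The interaction gave 31, then 50 with DESeq2, 48 with library size only, 10 with no filter, 1 without both GV libraries, 0 without the 3 libraries and 0 to 1209 leaving out one, with 0 to 2 members. The cause was not tested. Genes tested with all libraries were 1765 at GV, 2097 at MII, 2045 in WT, 2225 in Nat10-ZcKO and 3863 in the interaction. DESeq2 and library size only tested the same genes. With no filter the numbers tested were 13004, 11147, 12057, 12702 and 13685 in the same order. With the replicate block, 0 were called at GV, 0 at MII, 0 in WT, 194 in Nat10-ZcKO and 8 in the interaction, with no member among them, and the numbers were not shown to pair the libraries.

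Signs turned for values near 0 or where WT MII replicate 1 was left out, so that only the library without member counts stood for WT MII. Igf2bp2 at GV ran from -1.09 to 0.33 leaving out one library and was 0.67 without both. Ythdc1 in WT ran from -6.29 to 2.49. In the interaction, Mettl14 ran from -2.12 to 4.31, Fto from -3.13 to 2.98, Ythdc1 from -0.17 to 8.53, with -0.35 for library size only, and Ythdf2 from -1.17 to 5.11, with 0.17 for no filter and 0.18 for the replicate block. Scaling by library size moved the median over all genes from 1.04 to 0.15 in the interaction and from -0.07 to 0.11 over 8 libraries. Members past the ac4C/IgG cutoff were 3, against 3844 of 8752 genes. They were 10 with no scaling, against 8179 of 8752 genes, and 1 by the lower bound, against 439 of 8752. With at least 50 counts they were 2 of 7, against 1533 of 4680 genes. The median WT GV level was 28.9 to 31.8 TPM leaving out one library.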
